A study of Mus musculus with 6 samples.

Results

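miR-210 is a microRNA (miRNA) whose hairpin precursor yields a mature strand from each arm, miR-210-3p and miR-210-5p (mmu-miR-210-3p and mmu-miR-210-5p in the files). The members were found by name, with earlier results of these data known, and are 2 of the 1247 mouse miRNAs on the array. Each was read by 2 probes, and each probe was printed as 20 spots per array. The samples were mProx24 cells, a mouse line labelled as proximal tubular cells of strain C57B6. There were 6 conditions with 1 Agilent one-colour array per condition, so no condition had a replicate array.

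At 20% oxygen there were 3 arrays. The control carried the label NG PBS, the high glucose array HG PBS, and the palmitate array NG Pal, with palmitate at 150 µM bound to 0.15% bovine serum albumin for 9 h. At 1% oxygen for 12 h there were also 3 arrays, namely hypoxia (NG PBS), triple stimuli (high glucose, palmitate and 1% oxygen) and triple stimuli plus rapamycin. Rapamycin, an inhibitor of the mTORC1 kinase complex, was given at 0.4 µg/ml for 12 h before palmitate. The labels give no glucose concentration, and albumin is named only with palmitate, so effects of palmitate and of albumin cannot be told apart. They also do not say whether cells stayed at 1% oxygen during the palmitate step. All cultures grew in medium with serum, and 100 ng of total RNA was labelled for each array.

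miRNAs are short RNAs that guide Argonaute proteins to messenger RNAs, mostly through the seed near their 5′ end, and lower the output of those messengers. When oxygen is scarce, the hypoxia-inducible factor is stabilised and activates transcription of miR-210 in most cell types studied, renal epithelium included. The strand that accumulates is miR-210-3p, which is known to repress the iron-sulfur cluster scaffold Iscu and so to restrain mitochondrial respiration. miR-210-5p is the passenger strand and is usually scarce.

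The mature strands are shown because the array reads each arm separately and the probes differ in how much of each arm they pair with. Capitals mark the seed, bases 2 to 8 from the 5′ end:
miR-210-3p: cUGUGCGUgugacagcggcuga
miR-210-5p: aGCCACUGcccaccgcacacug
In RefSeq (GRCm38.p6) miR-210-3p lies at chr7:141221407-141221428 and miR-210-5p at chr7:141221445-141221466, both on the minus strand. They sit inside the hairpin Mir210 at chr7:141221384-141221493, here 5′ to 3′ with both mature arms in capitals:
Mir210: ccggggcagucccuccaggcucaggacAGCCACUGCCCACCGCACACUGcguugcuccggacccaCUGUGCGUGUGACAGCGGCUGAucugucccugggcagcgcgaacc
No other annotated gene of that table overlapped the hairpin. Its nearest neighbours were Rassf7, 2725 bases away on the side of lower coordinates, and Gm51460, 6712 bases away on the other side. Of the 1679 mature mouse miRNAs in the table, 0 others shared bases 2 to 8 with either arm, and 0 shared bases 2 to 7, so neither arm had a seed family among them.

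The probes pair with the 3′ end of each arm. The longer probe of each pair has 1 more base than the shorter, shown as the capital:
miR-210-3p 15-base probe: tcagccgctgtcaca
miR-210-3p 16-base probe: tcagccgctgtcacaC
miR-210-5p 12-base probe: cagtgtgcggtg
miR-210-5p 13-base probe: cagtgtgcggtgG
The 16-base probe pairs with bases 7 to 22 of miR-210-3p, and the 13-base probe with bases 10 to 22 of miR-210-5p. Among other mature mouse miRNAs of RefSeq, the longest run shared with the paired stretch was 9 bases for the miR-210-3p probes (miR-7672-5p). For the miR-210-5p probes it was 8 bases. From the 3′ end inwards, no other mature miRNA of RefSeq shared more than 5 bases with either arm. Only 1017 of the array's 1247 miRNA names matched that set, and array miRNAs outside it were not searched. By base composition the 4 probes held 60.0% to 69.2% G and C.

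Across the series, 198 miRNAs were detected on at least 1 array, with 162 to 194 per array. The detection rule used here required the software's well-above-background flag on a share of 0.5 or more of a probe's spots. No miRNA spot was saturated, and 4.26% to 4.44% were flagged as outliers and left out of means. Per the file headers all 6 arrays shared 1 slide, with the 20% oxygen arrays in row 1 and the 1% oxygen arrays in row 2, so slide row and oxygen cannot be told apart. The 4 spike-in controls differed between the rows by -0.27 to -0.08 on the log2 scale after scaling (1% minus 20%), 2 of them without overlap between the rows. In the authors' deposited value table, the high glucose column matched the scanner file labelled palmitate and the palmitate column the one labelled high glucose, for 100% of miRNAs above the floor. Which labels are right was not settled, and scanner files are named here by their labels; both arrays are at 20% oxygen, so oxygen groups are the same either way. Of 11 kidney epithelium markers, 7 were detected on all 6 arrays (5 members of the miR-30 family, with miR-10b-5p and miR-10a-5p), while miR-192-5p, miR-194-5p, miR-204-5p and miR-215-5p were not detected on any. Also undetected were the 5 miR-200 family markers of epithelium, the 5 blood, 2 endothelial and 5 fibroblast or smooth muscle markers on the array, and those of hepatocytes and neurons. Of 3 muscle markers, miR-206-3p was detected on all 6 arrays and miR-1a-3p and miR-133a-3p on none.

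miR-210-3p read well above background on all 3 arrays at 1% oxygen and near background on all 3 at 20%. By its 16-base probe, the mean processed intensity (± SD over 20 or 19 spots not flagged as outliers) was 21.6 ± 6.88 in the control, 25.7 ± 5.86 in high glucose and 20.0 ± 5.92 in palmitate. At 1% oxygen it was 258 ± 23.7 in hypoxia, 224 ± 14.1 in triple stimuli and 232 ± 15.7 with rapamycin added. The groups did not overlap even spot by spot: the 58 spots used at 1% oxygen started at 199, and the 60 at 20% oxygen ended at 37.6. The SDs here are spreads within an array and say nothing of a second culture.

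The 15-base probe also split the arrays by oxygen. Its mean over 16 to 20 spots was 15.7 ± 4.89 in the control, 17.7 ± 4.05 in high glucose and 13.9 ± 2.79 in palmitate. It was 203 ± 11.4 in hypoxia, 158 ± 8.08 in triple stimuli and 164 ± 7.30 with rapamycin added. All 51 of its spots used at 1% oxygen, from 145 upwards, lay above all 54 at 20%, which reached 28.3.

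**Figure D1:**
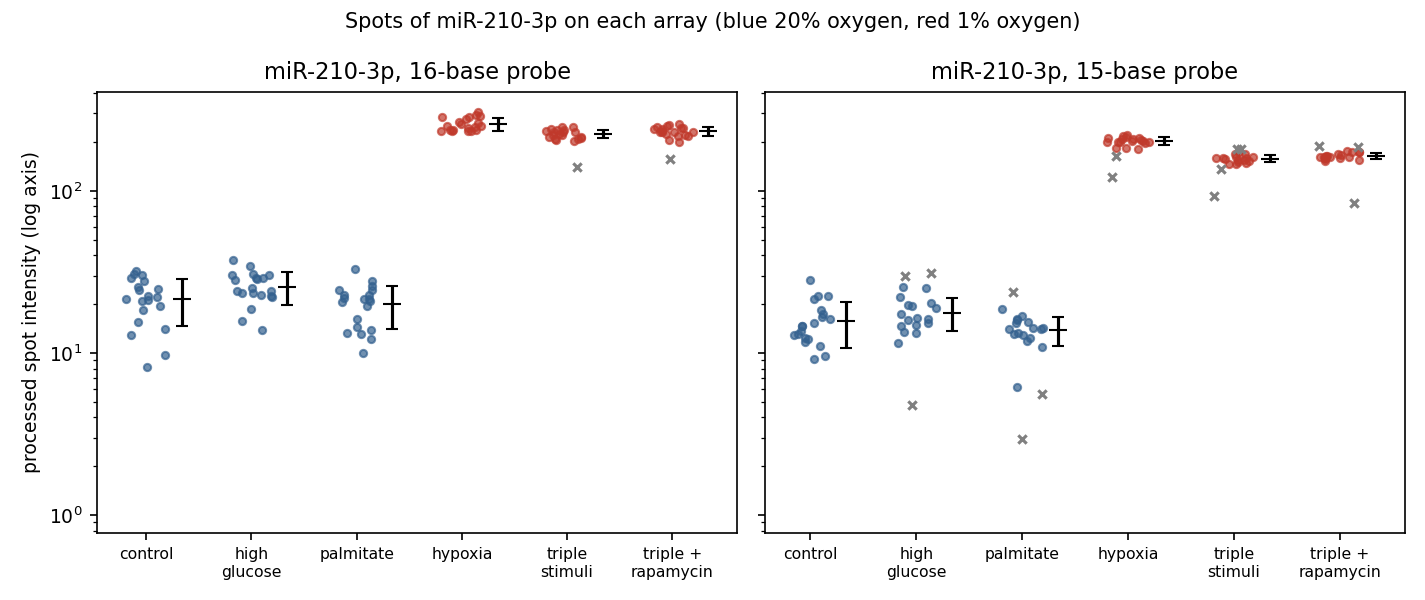
Processed intensity (log axis) of every spot of the 16-base probe (left) and the 15-base probe (right) of miR-210-3p on the 6 arrays. Blue points are arrays at 20% oxygen, red points arrays at 1% oxygen, grey crosses spots flagged as outliers, and black bars the mean ± SD of the other spots. The red points start at 199 on the left and 145 on the right, above every blue point.

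The number of spots well above background followed the same split, but detection calls did so only for the 15-base probe. All 20 spots of both probes were well above background on each array at 1% oxygen. At 20% oxygen the 16-base probe had 8 such spots of 20 in the control, 12 in high glucose and 5 in palmitate, so that it met the rule in high glucose alone. The 15-base probe had 1, 4 and 1 such spots and met it on none of the 3. The software's own detection call for miR-210-3p was positive on all 6 arrays. Its summed signals (± the software's error) were 10.5 ± 1.99 in the control, 12.3 ± 2.10 in high glucose and 9.57 ± 2.01 in palmitate. They were 130 ± 9.49 in hypoxia, 108 ± 7.98 in triple stimuli and 112 ± 8.25 with rapamycin added. The 3 summed signals at 20% oxygen had error ranges that overlapped, and all 3 at 1% oxygen lay far above them.

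Before arrays were compared, signals were divided by the array's 75th percentile of the 281 probes that all 6 arrays detected. The scaled signal of miR-210-3p (16-base probe, ± SE over spots) was highest in hypoxia at 260 ± 5.36, then 219 ± 3.15 in triple stimuli and 206 ± 3.19 with rapamycin added. Far below came the control at 24.7 ± 1.76, high glucose at 24.1 ± 1.23 and palmitate at 21.2 ± 1.41. Neighbours in the order from control to palmitate did not differ beyond their spread over spots.

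In the control miR-210-3p did not meet the detection rule. Folds were therefore taken over the larger of its own mean and that array's lowest detected signal. For the 16-base probe this was its own mean, 24.7 against 22.7. The fold was 10.5 in hypoxia, 8.88 in triple stimuli and 8.34 with rapamycin added. These are ratios of measured means and not lower limits, and the control's mean had a spot SE of 0.10 on the log2 scale. The 15-base probe read 18.0 in the control, so there the lowest detected signal took the place of its reading. Its folds of 9.02, 6.78 and 6.40 are therefore lower limits. They cannot be compared with the folds of the 16-base probe. In hypoxia miR-210-3p was the 1 miRNA called at least 1.5-fold higher than in the control (0.575% of 174 detected on either array), and the next highest, miR-3102-5p, was 1.36-fold higher. The call rate was wider in the other comparisons, at 6.38% of 188 miRNAs higher in triple stimuli and 9.28% of 194 with rapamycin added. miR-5126 came next there, at 2.62-fold and 4.06-fold, still below the 8.88-fold and 8.34-fold of miR-210-3p. All 3 comparisons use the same control array. For high glucose or palmitate alone, no fold of miR-210-3p can be given. High glucose was detected but, once scaled, read no higher than the control; unscaled it read 0.25 higher on the log2 scale, where the median miRNA was 0.23 higher. Palmitate and the control were both below the detection rule. In these comparisons 9.42% of 191 miRNAs were called higher with high glucose and 2.34% of 171 lower with palmitate. The 18 higher and 0 lower calls with high glucose became 13 and 2 with quantile normalisation, and the 0 and 4 with palmitate became 3 and 2 at the 75th percentile of all probes.

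Against the control, the balance of higher and lower calls also moved with the scaling for the 1% oxygen arrays, while miR-210-3p stayed high in all. For hypoxia it was 1 higher and 3 lower as scaled here, and 4 and 1 with no scaling. For triple stimuli it was 12 and 0, and 8 and 3 with quantile normalisation. For triple stimuli plus rapamycin it was 18 and 3, and 33 and 0 with no scaling.

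miR-210-3p was slightly lower with high glucose, palmitate and low oxygen together than with low oxygen alone. The difference of triple stimuli from hypoxia was -0.25 on the log2 scale (spot SE 0.04), where the median over 171 miRNAs detected on both arrays was 0.10 with a robust SD of 0.20. Of those miRNAs, 23 lay as far from the median or farther, and the difference did not reach 1.5-fold; 9.14% of 186 miRNAs were called higher and 0% lower. The 15-base probe read -0.41 (spot SE 0.03) for the same pair of arrays. Triple stimuli plus rapamycin against hypoxia read -0.34 (spot SE 0.04) and, by the 15-base probe, -0.49 (spot SE 0.02), where 10.3% of 194 miRNAs were called higher and 0.515% lower and miR-210-3p was in neither. Those 20 higher calls and 1 lower became 17 and 4 with quantile normalisation. Without replicate arrays these values cannot be set against a spread between cultures.

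mTORC1, the target of rapamycin, is known to raise translation of the hypoxia-inducible factor in many cells. miR-210-3p differed between triple stimuli plus rapamycin and triple stimuli by -0.09 (spot SE 0.03), against a median of -0.07 and a robust SD of 0.12 over 184 miRNAs. Of these, 165 lay as far from the median or farther. The 15-base probe gave -0.08 (spot SE 0.02). The unscaled intensities run the other way, 224 and 232, and the median miRNA was then 0.07 higher as well, so the sign of this small difference turned with the scaling. Here 2.05% of 195 miRNAs were called higher and 1.54% lower, and miR-210-3p was in neither group. These 4 higher and 3 lower calls became 9 and 0 at the 75th percentile of all probes and 6 and 0 with no scaling.

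Grouping the arrays by oxygen set 3 against 3, with the other treatments unevenly spread over both sides. Mean log2 scaled signal of miR-210-3p was 7.83 ± 0.18 (SD, n = 3) at 1% oxygen and 4.59 ± 0.04 (SD, n = 3) at 20%. At 20% oxygen 1 of the 3 arrays met the detection rule, and palmitate was raised to its array's lowest detected signal. Raising it narrowed the SD, since the values as read gave 4.54 ± 0.12 (SD, n = 3) at 20%. The fitted difference was 3.24 (SE 0.10), or 9.47-fold, with adjusted p = 8.26e-06 in limma over the 198 miRNAs detected on at least 1 array. It was the 1 miRNA that passed 0.05 (0.505% higher and 0% lower), and 11 had an unadjusted p under 0.05. The miRNA was picked with this result known, so the p-value describes the fit and is no independent support. The exact two-sided permutation test of the 3 against 3 arrays gave p = 0.10, the smallest this design allows.

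**Figure D2:**
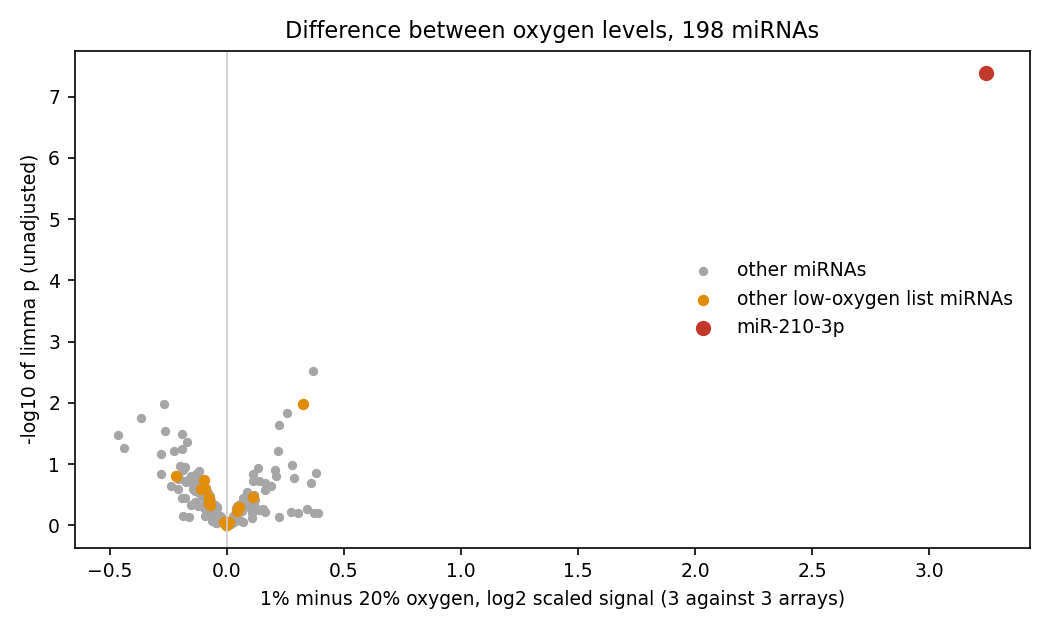
Difference between 1% and 20% oxygen (log2 scaled signal, x axis) against -log10 of the unadjusted limma p (y axis) for 198 miRNAs. The red point, miR-210-3p, stands at 3.24; all other points, the orange low-oxygen list among them, lie between -0.46 and 0.39.

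After miR-210-3p the largest difference either way was -0.46 (SE 0.17), for miR-712-5p, and the highest was 0.39 (SE 0.78), for miR-5126. Next by p-value in the limma fit came miR-350-3p (0.37, SE 0.08, adjusted p = 0.295), miR-322-5p (0.33, SE 0.09, adjusted p = 0.527) and miR-345-5p (-0.27, SE 0.07, adjusted p = 0.527). None of the 3 passed the threshold, although each had oxygen groups that did not overlap. Over all 198 miRNAs, the lowest 1% array lay above the highest 20% array for 3.54%, and the reverse held for 8.59%.

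Other miRNAs reported to respond to low oxygen, a list of 20 that leaves miR-210 out, did not pass the same test with signals scaled as here. Of the 20, 19 were on the array and 16 were tested. miR-199a-5p, miR-214-3p and miR-429-3p were not detected, and miR-424-5p was not among the array's names. In the limma fit 0 of the 16 passed in either direction, with 6 above 0. Their median was -0.01, against -0.03 over all miRNAs tested. miR-322-5p, the rodent counterpart of human miR-424, was highest and had log2 values of 6.23 in the control, 6.15 with glucose and 6.13 with palmitate, against 6.64, 6.50 and 6.36 on the arrays for hypoxia, triple stimuli and added rapamycin. It was the 1 list member higher without overlap, and miR-107-3p (-0.10, SE 0.06) was the 1 lower without overlap, out of 16; over all 198 miRNAs these shares were 3.54% and 8.59%.

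miR-21a-5p, which is induced in injured kidney, differed by 0.11 (SE 0.11), and miR-155-5p, an inflammatory miRNA, by -0.11 (SE 0.09). Both had overlapping groups. The lowest of the list was miR-181b-5p (-0.22, SE 0.14). In hypoxia against the control, 0 of 16 list members were called higher and 0 lower, where 0.575% of all miRNAs were called higher and 1.72% lower. The list ran from -0.23 (spot SE 0.03) for miR-155-5p to 0.41 (spot SE 0.06) for miR-322-5p. Triple stimuli against the control also gave 0 list calls either way, where 6.38% of all miRNAs were called higher and 0% lower. The same held for the array with rapamycin, where 9.28% were called higher and 1.55% lower.

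By Pearson's r with miR-210-3p over the 6 log2 values, the 5 most similar of 183 miRNAs detected on at least 3 arrays were miR-350-3p (r = 0.95), miR-322-5p (0.91), miR-224-5p (0.90), miR-28a-5p (0.88) and miR-16-5p (0.78). Of all 183, 4 had an r over 0.8, and the median r was -0.13. The 6 points fall into 2 groups by oxygen and share 1 slide and the scaling. The first 4 had oxygen groups without overlap but small differences, 0.22 for miR-224-5p and 0.26 for miR-28a-5p, against 3.24 for miR-210-3p. miR-350-3p had log2 values of 6.89, 6.81 and 6.73 in the control, high glucose and palmitate, and 7.22, 7.23 and 7.09 in hypoxia, triple stimuli and triple stimuli plus rapamycin. miR-28a-5p stood close to the detection limit and was detected on 5 arrays. Its log2 value of 4.51 in the control equals that array's lowest detected signal, and it was 4.91 in triple stimuli. At the other end, miR-345-5p had an r of -0.92.

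**Figure D3:**
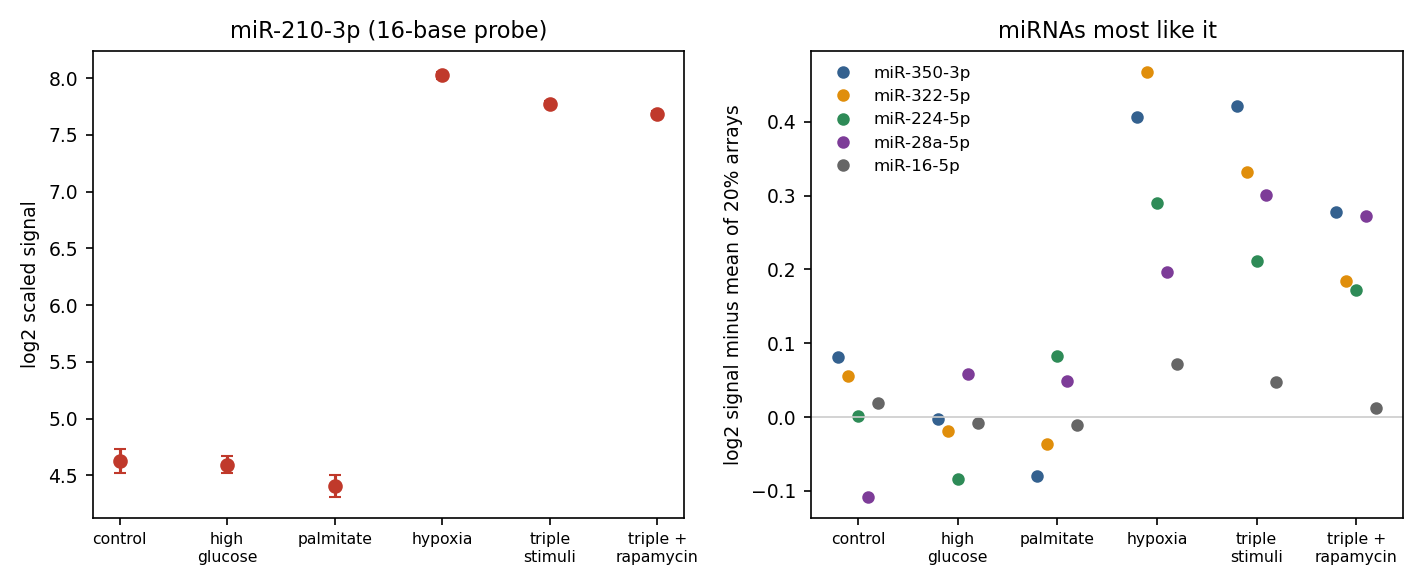
Left, log2 scaled signal of miR-210-3p on the 6 arrays, with bars for the SE over spots. Right, the 5 miRNAs with the highest Pearson's r to it, each as log2 signal minus its own mean over the 20% oxygen arrays; the right panel has its own, narrower axis, with oxygen differences up to 0.37 where miR-210-3p differs by 3.24.

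miR-210-5p, the other arm, met the detection rule on none of the 6 arrays. Its 13-base probe nevertheless read higher at 1% oxygen. The mean processed intensity (± SD over 17 to 19 spots) was 0.188 ± 2.93 in the control, 2.28 ± 3.78 in high glucose and -0.76 ± 4.08 in palmitate. It was 16.7 ± 4.67 in hypoxia, 10.4 ± 5.38 in triple stimuli and 9.38 ± 4.03 with rapamycin added. The 20% oxygen arrays centred on 0, that is, on background, and each 1% oxygen array had a mean above them. In single spots the groups overlapped: of 55 spots at 1% oxygen, 30 lay above the highest of 57 at 20%.

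The 12-base probe of miR-210-5p showed much less. It read -0.48 ± 3.34 in the control, -1.26 ± 3.75 in high glucose and -2.12 ± 3.95 in palmitate, and 3.27 ± 4.50 in hypoxia, 2.72 ± 3.03 in triple stimuli and -2.21 ± 2.81 with rapamycin added. Hypoxia and triple stimuli were above the 20% arrays and the rapamycin array was not, so the groups overlapped.

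**Figure D4:**
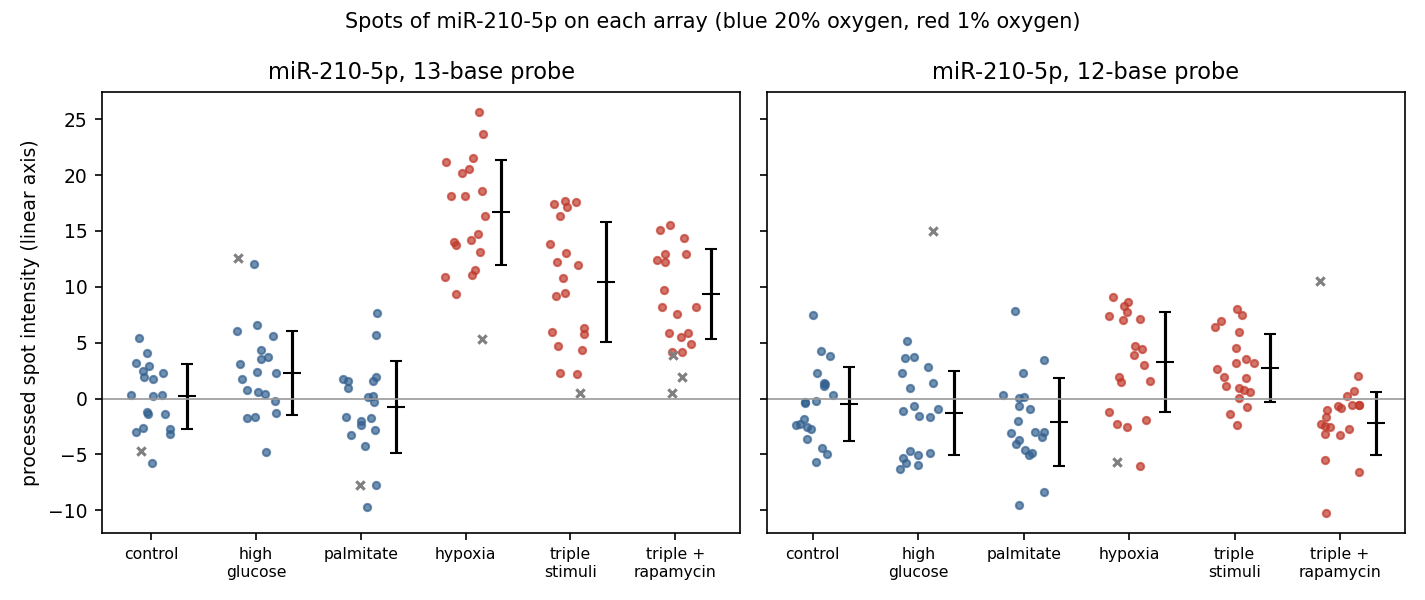
Processed intensity (linear axis, grey line at 0) of every spot of the 13-base probe (left) and the 12-base probe (right) of miR-210-5p. Colours, crosses and bars are as for miR-210-3p, with red for 1% oxygen. On the left the means at 1% oxygen are 16.7, 10.4 and 9.38 against -0.76 to 2.28 at 20%; on the right the array with rapamycin falls back among the blue ones.

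On the scaled linear signal, the 13-base probe of miR-210-5p had a mean of 11.8 ± 4.46 (SD, n = 3 arrays) at 1% oxygen and 0.516 ± 1.498 (SD, n = 3) at 20%, a difference of 11.3. The exact two-sided permutation test gave p = 0.10, the smallest possible here. No fold is given, since both sides were below the detection rule. Among the 2739 probes detected on no array, a pool that leaves out any probe that rose far enough to be detected, this was the largest difference, and the next were 5.84 for a probe of miR-712-5p and 4.88 for a probe of miR-21a-3p, the passenger strand of miR-21a. Over those probes the median difference was 0.30 with a robust SD of 0.99, and 8.03% had their lowest 1% array above the highest 20% array. The 12-base probe differed by 2.66, a size that 46 of the 2739 probes reached (permutation p = 0.30, exact, two-sided). The undetected probe of miR-712-5p ran against the brighter probe used in the limma fit, where that miRNA differed by -0.46 on the log2 scale.

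**Figure D5:**
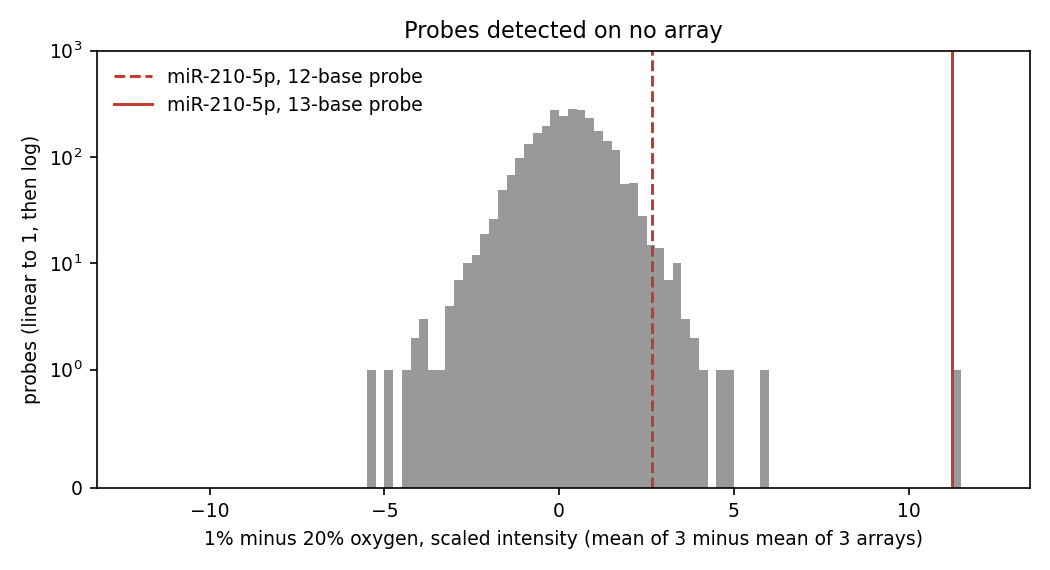
Number of probes (y axis, linear to 1 and then log) by the difference in scaled intensity between 1% and 20% oxygen (x axis) for the 2739 probes detected on no array. Red lines mark the probes of miR-210-5p: the 13-base probe (solid) at 11.3 is the rightmost of all, and the 12-base probe (dashed) is at 2.66.

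The scanner software called miR-210-5p detected in hypoxia and on no other array. The summed signal at 20% oxygen was -0.08 ± 1.82 for the control, 0.288 ± 1.91 for high glucose and -0.81 ± 1.89 for palmitate. At 1% oxygen it was 5.63 ± 1.89 for hypoxia, 3.72 ± 1.87 for triple stimuli and 2.03 ± 1.81 once rapamycin was added. Of the 1247 miRNAs, miR-210-5p was the 1 that the software called in hypoxia alone.

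The authors' deposited table of processed values showed the same contrast for miR-210-3p and 1 value above the column floor for miR-210-5p. It listed miR-210-3p at 0.50 in the control column, 0.251 under high glucose and 0.418 under palmitate. The 1% oxygen columns held 5.73 for hypoxia, 3.98 for triple stimuli and 3.89 for the addition of rapamycin. miR-210-5p stood at 0.207 in hypoxia and at the floor elsewhere. The values under high glucose and palmitate match the scanner files in exchanged order, as described.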

How the data were processed

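Each condition was taken from its sample title. Per the file headers, Agilent Feature Extraction 10.7.3.1 quantified the one-colour scans, subtracted background and flagged outlier spots, and the deposited intensity values are linear and not normalised between arrays. Other columns are flags of the software. The deposited value table holds a linear signal per miRNA, with each array divided by 1 factor of unstated origin, and nothing was pooled. Its columns are not centred, and their medians equal the column floors (0.00341 to 0.00475).

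A probe's value was the mean of its spots without an outlier flag, scaled as described, floored at the array's lowest detected signal and moved to log2; the brightest probe stood for each miRNA. Pairs of arrays were called at 1.5-fold and more than 2 spot standard errors. Where 1 of the arrays was below the detection rule, 1.5-fold alone was required. Oxygen groups were compared with limma 3.58.1 in R 4.3.3 (two-sided, Benjamini-Hochberg adjustment, threshold 0.05). The fit was also run on simulated data that gave every miRNA the same normal noise. Such data are simpler than these arrays, so the run does not bear on the p-values given here. Precision is limited by the number of arrays. Named miRNAs are both arms of miR-210, the extremes of the low-oxygen list, the 5 highest r and the next 3 by p; others named (miR-155-5p, miR-21a-5p, miR-3102-5p, miR-5126, miR-712-5p, miR-21a-3p, miR-107-3p) were chosen after their values were seen. Members and lists were chosen with earlier results of these data known. Of the array's 1247 names, 1017 matched RefSeq's mature miRNAs.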

Additional observations from a re-analysis of the deposited data

How the results depend on the processing

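With 1 array per condition no spread between cultures is known. No paired analysis was possible because each condition had 1 array. For the oxygen comparison, miR-210-3p kept its direction and adjusted p under 0.05 in limma under the 16 other settings, of which the 16-base probe alone and the exchange of high glucose and palmitate labels repeat the same fit (range 1.73 with normexp, whose offset of 50 compresses dim signals, to 3.57 with the deposited table) and all 6 left-out arrays (3.15 to 3.31). The highest adjusted p among these was 0.00597. Normexp called 2 miRNAs in limma, adding miR-21a-5p (0.16, adjusted p = 0.0445), a member of the low-oxygen list. The other 20 settings called 1 each, those leaving out an array included (lowest 1, highest 1).

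Differences between pairs of arrays, on the log2 scale, moved as follows. Hypoxia minus control was 3.58 with no scaling, 1.94 with normexp, 3.17 with the 15-base probe and 3.58 with the summed signal. Triple stimuli minus control was 1.62 with normexp and 2.76 with the 15-base probe. With rapamycin it was 3.43 with no scaling, 1.61 with normexp and 2.68 with the 15-base probe. In these 15-base values the control array's lowest detected signal stands in place of that probe's own reading. Triple stimuli minus hypoxia was -0.53 in the deposited table. Triple stimuli plus rapamycin minus hypoxia was -0.15 with no scaling and -0.56 in the table. Rapamycin minus no rapamycin turned to 0.14 at the 75th percentile of all probes and 0.051 unscaled. Dividing each array by 1 factor shifts miR-210-3p and the median miRNA equally, so their gap cannot change between such scalings. Only quantile normalisation could move it, and the gap therefore says little about stability. For rapamycin minus no rapamycin the gap was -0.02 with 1 factor per array and 0.00371 with quantile normalisation. For triple stimuli minus hypoxia it was -0.35 and -0.34.

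The software detected miR-210-5p on 1 array, against 0. The 13-base probe of miR-210-5p, in settings chosen after seeing the data, differed by 10.6 to 11.6, and by 8.73 to 12.98 with an array left out; it ranked first among undetected probes each time an array was left out and with no scaling. Of the 5 most similar miRNAs, 3 were again among the first 5 under each of the 3 other scalings; they were not the same 3, and miR-350-3p and miR-322-5p were among them each time. Calls past 1.5-fold rose from 12 to 29 (triple stimuli), 21 to 33 (with rapamycin) and 18 to 29 (high glucose) against the control with no scaling. They fell from 4 to 2 for hypoxia with quantile normalisation, and for triple stimuli minus hypoxia from 17 to 8 at the 75th percentile of all probes and to 6 with quantile normalisation. High glucose and palmitate minus control had no main value to vary.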

Other observations

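The construction of the deposited value table could be read from the scanner files, and it bears on the dim values of miR-210. Each column equalled, within 0.1% and up to 1 factor per array, the sum of a miRNA's probe signals over only those probes whose signal exceeded 3 times the software's error. This held for 100% of the 206 to 228 miRNAs above the floor in each column, against 68.7% to 73.5% when all probes were summed. The table's 0.251 for miR-210-3p under high glucose, made from the palmitate scanner file, thus leaves out the 15-base probe, which stood at 2.82 errors there, while the 0.418 under palmitate holds both probes. The 0.207 for miR-210-5p in hypoxia is the 13-base probe alone, at 3.42 errors. The same probe stood at 2.20 errors for triple stimuli and 2.05 with rapamycin added, where the table lists the floor.

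The probe positions written in the scanner files did not match RefSeq for miR-210. For all 4 probes a position listed in the files was that of the RefSeq stretch reflected about the middle of the hairpin. By RefSeq the 16-base probe pairs with chr7:141221407-141221422. Among probes that pair in full with a miRNA of 1 mature entry in RefSeq, 782 of 1299 on the plus strand had a listed position equal to RefSeq's and 0 a reflected one. On the minus strand 0 of 978 were equal and 506 reflected. The remaining probes, 517 and 472, matched neither.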
